A study of Homo sapiens with 18 samples.

Results

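The comparison described here was made between LNCaP cells that had received an siRNA pool against E2F2 and LNCaP cells that had received a non-targeting control pool, with both groups exposed to the synthetic androgen R1881. Its 6 RNA-sequencing libraries, 3 per group, were taken by their titles from the 18 of the series, and all 58037 listed genes were read, of which 15185 had enough reads to be tested. LNCaP is an androgen-responsive human prostate cancer line. Cells grew in 9% serum that had been stripped of steroid hormones with charcoal, were transfected with Lipofectamine 2000, and were then given 0.1 nM R1881 (both groups used here) or the ethanol vehicle. RNA was taken 48 h after that treatment and made into exome-captured libraries. The interval between transfection and treatment is 42 h in the design text and 48 h in the protocol. The other groups were the control pool with vehicle, the E2F2 pool with vehicle, and an E2F1 pool with and without R1881, each with 3 libraries described by the submitters as biological replicates.

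E2F transcription factors pair with DP proteins and bind the promoters of genes needed for S phase. The retinoblastoma protein RB1 holds the activating members E2F1, E2F2 and E2F3 in check until cyclin-dependent kinases phosphorylate it, while its relatives RBL1 and RBL2 work with the repressive E2Fs and the MuvB core in the DREAM complex, which silences S-phase and mitotic genes in resting cells. The inhibitor CDKN1A (p21) blocks the kinases that release both brakes. In LNCaP cells a low dose of androgen stimulates growth, which was the setting in which the series compared loss of E2F1 with loss of E2F2.

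Library totals ran from 11646324 to 14819879 counts over the 6 libraries and from 10930204 to 14819879 over the series. Replicate 3 of each group stood apart from the other two: a chi-square of the counts per degree of freedom was 2.79 between control replicates 1 and 2 but 17 and 18.5 against replicate 3, and 2.57 against 10.9 and 10.3 in the E2F2 siRNA group. All 16 prostate luminal markers measured were expressed in every library, with summed levels of 8290 to 8876 CPM in the controls (CPM are counts scaled to a common library total) and 8533 to 9204 CPM with E2F2 siRNA. The 23 markers of blood, endothelial, stromal, basal, neuroendocrine and liver cells summed to 37.35 to 39.67 CPM in the controls and 48.94 to 58.25 CPM with E2F2 siRNA. PTPRC, CD3E, COL1A2, DCN, DES, KRT5, TP63, CHGA and HBB had 0 counts in all 6 libraries. Only 6 of the 23 could be tested: VWF, COL1A1, COL3A1, PDGFRB, KRT14 and SYP. All 6 were higher with E2F2 siRNA without overlap of the groups, as were 25.6% of all tested genes. Mean levels went from 17.9 to 23.1 CPM for VWF and from 14.4 to 20.9 CPM for COL1A1. Of the 6, COL3A1 alone passed the test. That call was lost without control replicate 2 or without E2F2 siRNA replicate 3. In bulk RNA, fewer cells of a kind and less RNA per cell cannot be told apart.

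The targeted gene was almost absent from the E2F2 siRNA libraries. E2F2 (chr1:23506430-23531220 on GRCh38, minus strand, protein-coding) had 3.34, 2.36 and 4.59 CPM in the control libraries and 0.0845, 0.0836 and 0.416 CPM with E2F2 siRNA, from 50, 33 and 53 counts against 1, 1 and 5. The groups did not overlap, and the log2 fold change was -4.05 ± 0.54 (SE; edgeR quasi-likelihood test, adjusted p = 3.73e-05). With vehicle in place of R1881, E2F2 differed by -4.14 ± 0.63 between the same pools.

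E2F1 also fell. This activator, targeted by the series' other pool, lies at chr20:33675683-33686404 on the minus strand of GRCh38 and had 73.4, 68.6 and 81.2 CPM in the controls against 25.4, 21.5 and 25.5 CPM with E2F2 siRNA. Every E2F2 siRNA library was below every control, with a log2 fold change of -1.62 ± 0.16 (edgeR, adjusted p = 1.69e-06). The E2F1 pool itself, against the same control libraries, gave -2.94 ± 0.17 for E2F1 and -1.22 ± 0.38 for E2F2.

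Across the transcriptome, 4601 of the 15185 tested genes (30.3%) passed an adjusted p of 0.05 in edgeR's quasi-likelihood test. Of these, 2416 genes rose (15.9% of those tested) and 2185 fell (14.4%), and these shares are the background for each gene group below in the fit of all replicates. A change of at least 2-fold was seen for 1345 genes (8.86%), of which 827 rose (5.45%) and 518 fell (3.41%). The median log2 fold change over all tested genes was 0.03, and the central 90% ran from -0.90 to 1.18. In 7435 genes (49%) the 3 libraries of one group did not overlap those of the other. Protein-coding genes split evenly, with 2068 rising (16.5%) and 2029 falling (16.2%) of 12501. Smaller shares fell among non-coding RNAs. Among 644 long intergenic non-coding RNAs 109 rose (16.9%) and 42 fell (6.52%), and among 749 antisense RNAs 100 rose (13.4%) and 44 fell (5.87%). Compared directly with the E2F1 pool, also with R1881, 3648 genes differed (24%), of which 1984 were higher with E2F2 siRNA (13.1%) and 1664 lower (11%). At least 2-fold differences numbered 1020 (6.72%), with 804 higher (5.29%) and 216 lower (1.42%). The background is larger for counts given below from replicates 1 and 2 only. In that fit 4185 of 15225 tested genes rose and 3643 fell against control siRNA. Against the E2F1 pool 3479 were higher and 3331 lower.

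**Figure D1:**
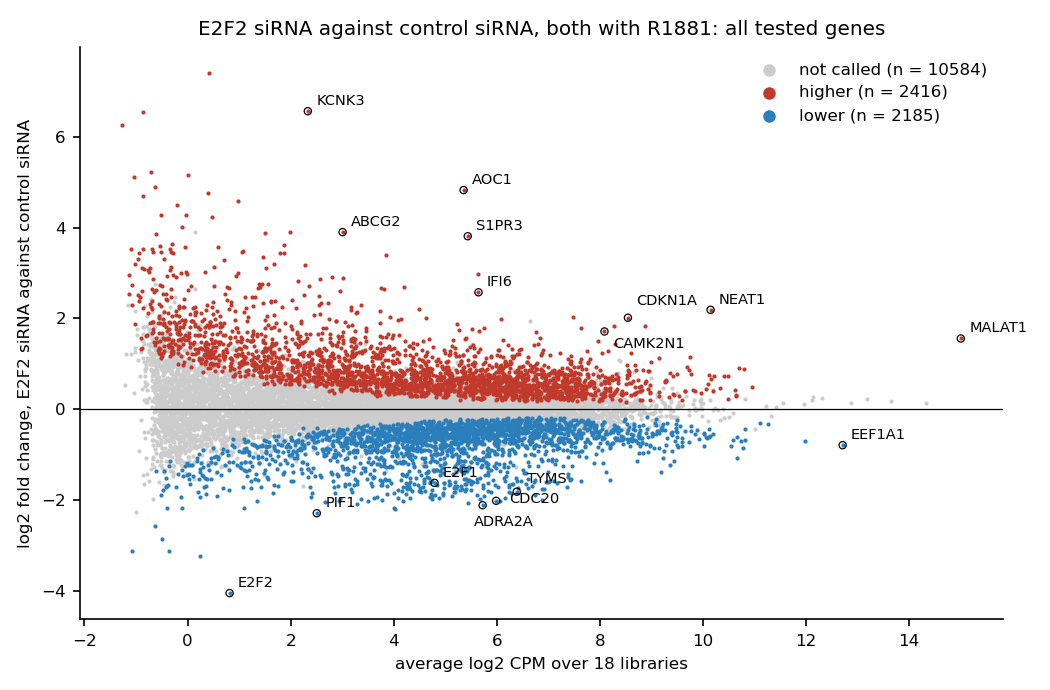
Each point is a tested gene, with its average level over the series (log2 CPM) on the x axis and the log2 fold change of E2F2 siRNA over control siRNA, both with R1881, on the y axis. Colours mark the 2416 genes that rose and the 2185 that fell in edgeR's test, and the labelled genes include E2F2 at -4.05 and NEAT1 at 2.19.

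The genes that load the replicative helicase onto DNA fell as a group. Among 29 genes of origin licensing and helicase activation, 24 fell and 1 rose, with a median log2 fold change of -1.49 against 0.03 for all tested genes. MCM10, which helps to activate the helicase, had 73.3, 75.4 and 69.1 CPM in controls and 23.0, 19.0 and 23.7 CPM with E2F2 siRNA. The E2F2 siRNA libraries all lay below the controls, at a log2 fold change of -1.73 ± 0.10 (edgeR, adjusted p = 1.29e-08). MCM4, a helicase subunit, went from 300, 309 and 298 CPM to 110, 97.9 and 115 CPM (-1.49 ± 0.08). CDC6, the loader of the helicase, went from 107, 110 and 104 CPM to 37.2, 30.9 and 35.5 CPM (-1.63 ± 0.09), again with no overlap. The origin recognition subunits ORC1 and ORC6 fell by 1.75 and 1.72 on the log2 scale, while ORC5 rose from 68.6, 65.9 and 47.6 CPM to 137, 141 and 96.2 CPM (1.04 ± 0.28, edgeR adjusted p = 0.011, or 0.055 without control replicate 3). With vehicle the list's median was -1.3. Against the E2F1 pool with R1881, 20 of the 29 were lower with the E2F2 pool and 1 was higher. The list also fell with the E2F1 pool, which gave a median of -0.66 against the same controls.

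At the replication fork, 25 of 32 genes fell and 1 rose, with a median of -1.04. FEN1, the nuclease that trims Okazaki fragments, went from 134, 134 and 139 CPM to 48.9, 45.0 and 47.8 CPM (-1.52 ± 0.08). CLSPN and TIMELESS, which steady the fork, fell by 1.64 and 1.34, and RFC5, a subunit of the clamp loader, also fell by 1.34. The member that rose was POLD4, the smallest subunit of DNA polymerase delta, at 0.80 ± 0.12, while POLD3 of the same polymerase fell by 1.05. Of the 32, 17 were lower and 1 was higher with the E2F2 pool than with the E2F1 pool. The E2F1 pool's own median against the same controls was -0.61.

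Promoter letters were read because E2F proteins are known to bind short GC-rich words behind a run of T in this class of promoter. The words searched on both strands were TTTCCCGC, TTTCGCGC, TTTGCCGC and TTTGGCGC, in RefSeq windows of 300 bases (250 before to 50 after the gene start, build GRCh38.p14), which were matched by symbol for 11114 tested genes. A word was present in 45.8% of the 24 licensing promoters and in 32.1% of the 28 fork promoters, against 5.39% of all tested genes with a window and 3.33% of all 27305 windows. Among tested genes it was present in 9.7% of those that fell, 15.1% of those that fell at least 2-fold and 3.74% of those that rose. The median GC content of the windows with a word was 65.7%, against 65.3% without one. The following stretches of 90 bases, 5′ to 3′ on the gene's strand with the words in capitals, show where they lie in the promoters of the clamp PCNA (chr20:5126654-5126743, minus strand) and of the helicase subunits MCM3 (chr6:52284889-52284978, minus) and MCM6 (chr2:135876502-135876591, minus), chosen after their values were seen.
MCM3: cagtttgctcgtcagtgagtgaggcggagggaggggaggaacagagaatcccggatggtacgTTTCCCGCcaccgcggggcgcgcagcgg
MCM6: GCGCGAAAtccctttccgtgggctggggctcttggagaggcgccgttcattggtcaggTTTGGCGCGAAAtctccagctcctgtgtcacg
PCNA: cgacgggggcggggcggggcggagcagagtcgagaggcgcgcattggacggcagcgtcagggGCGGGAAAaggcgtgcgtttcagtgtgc
The word of MCM3 ends 166 bases before the annotated start and that of PCNA, read on the other strand, 51 bases before it. The stretch of MCM6 holds 3 matches, of which the last 2 overlap and end 78 bases before the start. MCM3 had 161, 160 and 167 CPM in controls against 63.4, 54.4 and 66.4 CPM with E2F2 siRNA (-1.41), and PCNA fell by 1.25. MCM6 went from 138, 145 and 130 CPM to 78.1, 76.1 and 80.9 CPM (-0.81), and this drop was larger with R1881 than the -0.19 seen with vehicle (difference -0.62, edgeR interaction adjusted p = 0.0231). The interaction call was lost in 6 of the 12 fits that left out a library, namely control replicates 1 and 2 and E2F2 siRNA replicates 1 and 2 with R1881 and E2F2 siRNA replicates 1 and 2 with vehicle, in which the difference was -0.58 to -0.62. A match in the letters is a description and does not show binding.

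**Figure D2:**
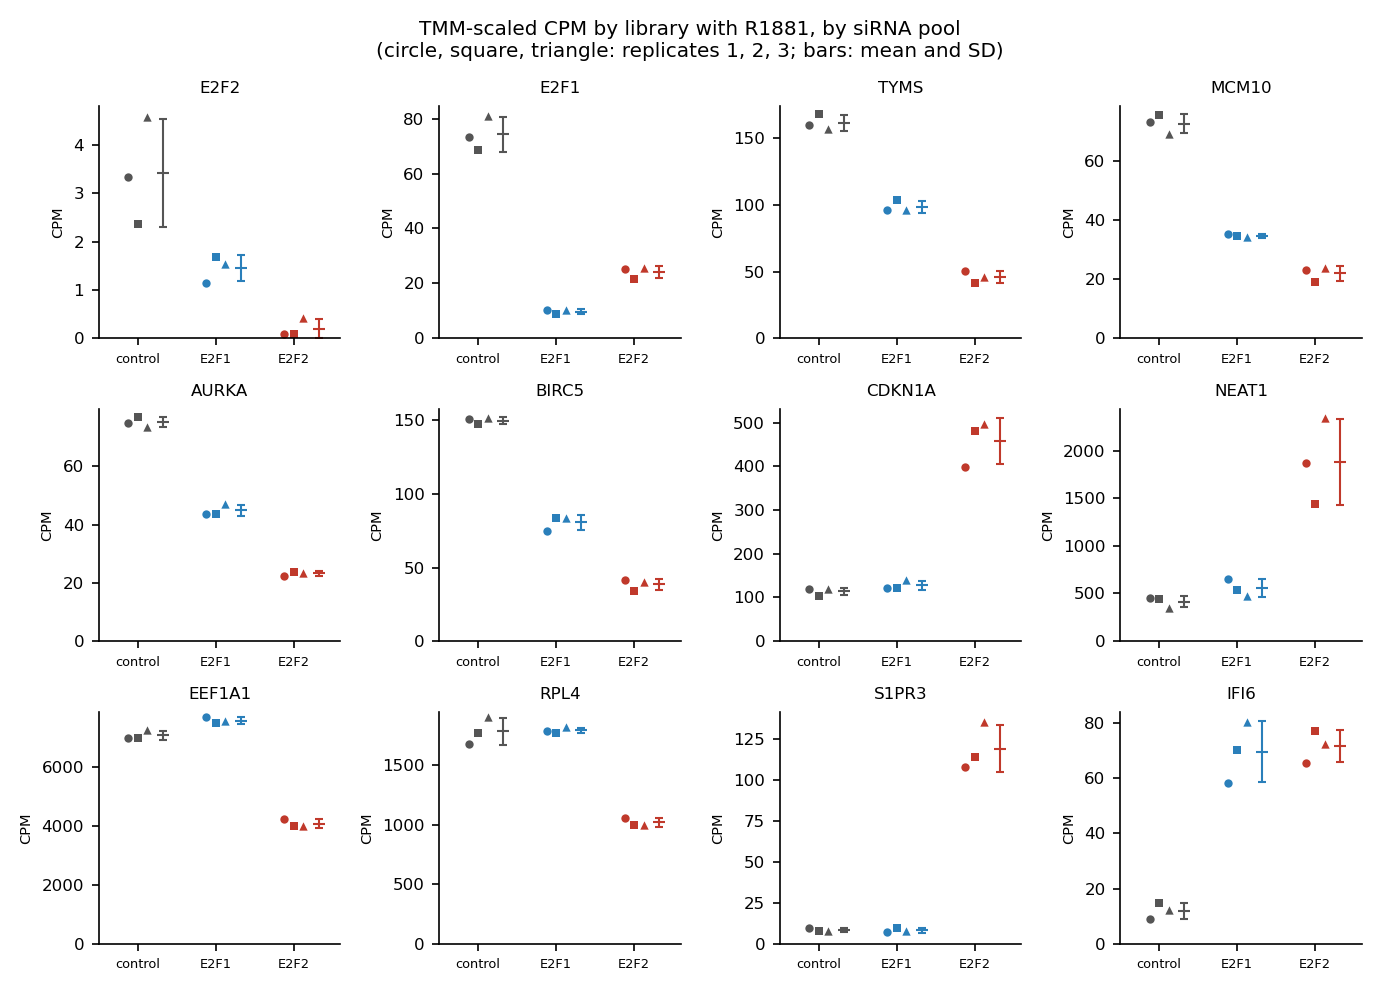
CPM of 12 genes named in the text, 1 panel per gene, for control, E2F1 and E2F2 siRNA with R1881; the symbols are single libraries, keyed by replicate, and the bars are group means. TYMS, MCM10, AURKA and BIRC5 are lowest with E2F2 siRNA, CDKN1A and S1PR3 are high only in the E2F2 siRNA libraries of the 3 groups drawn, and IFI6 is high with both E2F pools.

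Deoxynucleotide supply followed the same direction: 20 of 28 genes fell and none rose (median -0.60). TYMS, the enzyme that makes thymidylate, went from 160, 168 and 157 CPM to 50.5, 41.1 and 45.9 CPM. Its log2 fold change was -1.82 ± 0.09 (edgeR, adjusted p = 2.37e-09), with the groups far apart. RRM2, the inducible subunit of ribonucleotide reductase, fell by 1.6 and DUT, which removes dUTP, by 0.87. IMPDH2, which commits purines to guanine nucleotides, fell by 1.18, and the folate enzyme MTHFD1 by 0.95.

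Genes that copy chromatin behind the fork fell in 11 of 19 cases (median -0.79), and in 17 of 19 when only replicates 1 and 2 were used. ASF1B, a histone H3-H4 chaperone, went from 53.2, 49.1 and 54.2 CPM to 13.9, 12.3 and 16.7 CPM (-1.86 ± 0.19). UHRF1, which guides maintenance methylation, fell by 1.75, and the methyltransferase DNMT1 itself by 1.25. CHAF1A and NASP, which deposit and carry histones, fell by 1.34 and 1.15.

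Of 89 replication-dependent histone genes, 50 had enough reads to be tested, and 38 of them fell while 2 rose (median -1.56). The median with the E2F1 pool against the same controls was -0.83. HIST1H1B, a linker histone gene, went from 250, 247 and 267 CPM to 62.0, 53.2 and 74.4 CPM (-2.01). HIST2H2AB, HIST2H3D and HIST1H4A fell by 2.20, 2.17 and 2.09. The rising members were HIST2H2BE (0.40) and HIST1H3E (0.26), of which HIST1H3E lost its call without any single library of the 6. These genes are near-identical copies of each other, so reads can be split among them, and the E2F words stood in 30.2% of their 43 windows.

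Within the E2F, RB and MuvB machinery, 10 of 18 genes fell and 1 rose (median -0.58). FOXM1, the factor that drives mitotic genes with MuvB, went from 192, 189 and 224 CPM to 57.6, 47.0 and 57.9 CPM (-1.90 ± 0.17). Its partner MYBL2 went from 146, 140 and 164 CPM to 43.7, 37.0 and 46.8 CPM (-1.82 ± 0.16). Both ranges lay wholly below the controls. The repressive E2F7 and E2F8 fell by 1.95 and 1.93, the partner TFDP1 by 0.71, and RBL1 (p107) by 1.17. RBL2 (p130), chosen after its values were seen, rose from 158, 154 and 132 CPM to 244, 257 and 226 CPM (0.71 ± 0.16). Among members that were looked at for contrast, E2F3 fell by 0.60, and RB1, at -0.03, and E2F4, at -0.37, did not pass the test.

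The regulators of the G1 to S transition moved in the same direction, with 9 of 12 G1 cyclins and partners falling and 1 rising (median -1.01). CKS2 and CKS1B, small partners of the cyclin-dependent kinases, fell by 1.6 and 1.43, and CCNE2 (cyclin E2) by 1.48. SKP2, which marks p27 for degradation, fell by 1.23. CCND1 (cyclin D1) was the exception and rose slightly, from 482, 462 and 462 CPM to 543, 554 and 511 CPM (0.19 ± 0.06). That call was lost without control replicate 2 or 3 or without E2F2 siRNA replicate 1 or 2, at values of 0.17 to 0.18.

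CDKN1A rose more than 4-fold. This gene, at chr6:36676460-36687339, had 118, 104 and 119 CPM in controls and 399, 480 and 498 CPM with E2F2 siRNA, with a log2 fold change of 2.02 ± 0.12 (edgeR, adjusted p = 1.59e-08). Its value with vehicle was 2.49. The E2F1 pool against the same controls gave 0.17 ± 0.12, and the direct difference between the pools was 1.85 (edgeR, adjusted p = 3.63e-08). Of the 8 CDK inhibitors, 2 rose and 4 fell (median -0.34): CDKN2B (p15) rose by 1.08 ± 0.21, while CDKN3, CDKN2C and CDKN2A fell by 1.79, 1.53 and 1.42. CDKN1B (p27), at -0.16, and CDKN1C (p57), at 0.53, did not pass the test.

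**Figure D3:**
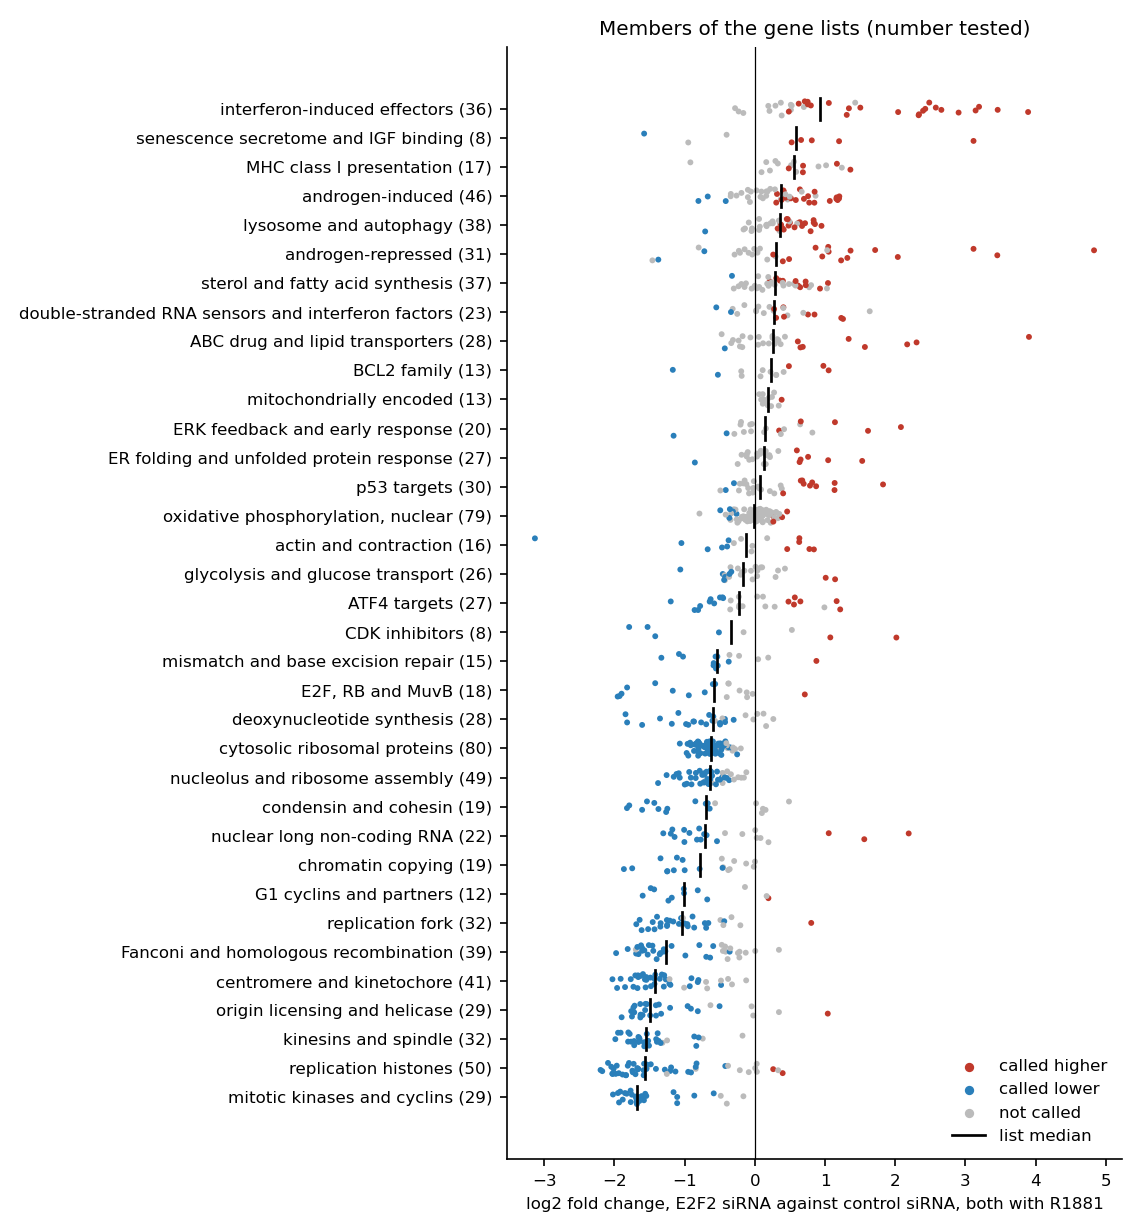
Log2 fold changes (E2F2 siRNA over control siRNA, with R1881) of the tested members of each gene list, with a point per gene and a line at each list's median. Lists of replication, mitosis, histones and ribosomal proteins have medians between -0.60 and -1.68, and the interferon-induced effectors have a median of 0.93.

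Mitotic genes fell almost throughout. Of 29 mitotic kinases, cyclins and their partners, 26 fell and none rose (median -1.68). BIRC5 (survivin), a subunit of the chromosomal passenger complex, went from 151, 147 and 152 CPM to 41.3, 34 and 40.2 CPM (-1.96 ± 0.10, edgeR adjusted p = 2.89e-09). AURKA, the kinase that matures the spindle poles, went from 75.1, 77.1 and 73.7 CPM to 22.4, 23.8 and 23.5 CPM (-1.70 ± 0.11). The groups were well separated for both. PTTG1 (securin) fell by 1.92 and CCNB2 (cyclin B2) by 1.77. Direct comparison with the E2F1 pool placed 18 of the 29 lower with the E2F2 pool and none higher. Against the same controls the E2F1 pool itself gave a median of -0.80.

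The structures that these kinases act on followed. Among 32 kinesins and spindle proteins 28 fell and none rose (median -1.55), with the spindle assembly factor TPX2 going from 236, 245 and 247 CPM to 75.4, 63.7 and 75.6 CPM (-1.76). Among 41 centromere and kinetochore genes 33 fell and none rose (median -1.42), and CENPM fell by 2.03. Among 19 condensin and cohesin genes 13 fell and none rose (median -0.70). CDCA5 (sororin), which protects cohesion, fell by 1.79, and the condensin subunits NCAPH and NCAPD2 by 1.6 and 1.43. The E2F1 pool against the same controls gave medians of -0.82, -0.75 and -0.46 for the kinesin, centromere and condensin lists.

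Promoters of late cell-cycle genes often carry the CHR element, read here as TTTGAA or TTCGAA on either strand. It stood in 76.7% of 30 kinesin and spindle windows, 60.9% of 23 mitotic kinase windows and 56.2% of 32 centromere windows, against 10.9% of tested genes with a window and 16.6% of all windows. Among genes that fell at least 2-fold the share was 31%. These short words are AT-rich, and the windows that held one had a median GC content of 57.7%, against 66.3% in the rest. CDC20, an activator of the anaphase-promoting complex (chr1:43358852-43358941, plus strand), ESPL1, or separase (chr12:53268204-53268293, plus), and CIT, a kinase of cytokinesis (chr12:119877481-119877570, minus), chosen after their values were seen, show the element in capitals in 90 bases of GRCh38.p14 sequence from RefSeq.
CDC20: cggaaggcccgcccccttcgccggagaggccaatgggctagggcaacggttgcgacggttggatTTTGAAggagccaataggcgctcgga
ESPL1: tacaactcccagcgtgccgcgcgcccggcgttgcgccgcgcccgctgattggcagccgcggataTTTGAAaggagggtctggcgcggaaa
CIT: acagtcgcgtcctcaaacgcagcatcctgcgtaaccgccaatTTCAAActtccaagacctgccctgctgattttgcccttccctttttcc
The element ends 59, 25 and 202 bases before the annotated start in CDC20, ESPL1 and CIT. CDC20 went from 128, 124 and 154 CPM to 35.3, 27.4 and 37.4 CPM (-2.02), ESPL1 from 50.8, 51.2 and 54.2 CPM to 12.9, 10.2 and 17.7 CPM (-1.93), and CIT from 99.2, 95.6 and 117 CPM to 28.7, 19.4 and 30.5 CPM (-1.99). In none of the 3 did the groups overlap.

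Repair genes that serve replicating DNA fell too. In the Fanconi and homologous recombination list 26 of 39 fell and none rose (median -1.27). For this list the E2F1 pool's median against the same controls was -0.505. FANCD2, the protein that is ubiquitinated at crosslinks, went from 97.0, 96.0 and 96.0 CPM to 36.9, 31.9 and 37.4 CPM (-1.45 ± 0.11). UBE2T, the enzyme that carries that ubiquitin, fell by 1.3, the nuclease subunit EME1 by 1.98 and the checkpoint kinase CHEK2 by 1.27. Of 15 mismatch and base excision genes 10 fell (median -0.53), among them the uracil glycosylase UNG (-1.08). The sole riser, PMS2, went from 49.4, 52.3 and 53.9 CPM to 85.4, 98.4 and 102 CPM (0.88 ± 0.09). PMS2 has close pseudogene copies, so that its reads are uncertain.

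Targets of p53, the tumour suppressor that is a known activator of CDKN1A, were divided. Of 30 genes 10 rose, 2 fell and 18 did not pass (median 0.08). GDF15, a secreted stress cytokine, went from 139, 121 and 186 CPM to 457, 502 and 620 CPM (1.83 ± 0.27), with all E2F2 siRNA libraries above all controls. GADD45A and FBXO32 rose by 1.14 each, RPS27L by 0.79 and the death receptor TNFRSF10B by 0.40. The members that fell were the apoptosis effector BAX (-0.41) and the nuclease AEN (-0.30), and AEN passed only with all 6 libraries or without control replicate 2. Against the E2F1 pool, 8 of the 30 were higher and none lower, or 12 and 3 with replicates 1 and 2 only.

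Among 13 tested members of the BCL2 family 3 rose and 2 fell, against 15.9% and 14.4% of all tested genes. When replicate 3 of each group was left out, 6 rose. The pro-apoptotic BMF and PMAIP1 (NOXA) rose by 1.05 and 0.98, as did the protective BCL2L1 by 0.49. BCL2L12 fell by 1.17 and BID by 0.53, but BID did not pass without control replicate 2 or 3 or without E2F2 siRNA replicate 1 or 2 (-0.44 to -0.714 over the libraries left out).

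The translation machinery fell to a smaller extent but broadly. Of 80 tested cytosolic ribosomal protein genes 72 fell and none rose, with a median of -0.63, and no member was above -0.20. RPL4 went from 1683, 1773 and 1906 CPM to 1060, 1003 and 999 CPM (-0.81), and the groups were far apart. RPL13A went from 1770, 1725 and 2029 CPM to 888, 828 and 919 CPM (-1.07), and RPLP0 from 1939, 1931 and 2124 CPM to 1250, 1254 and 1258 CPM (-0.67). Many of these genes have processed pseudogenes that share their reads. With vehicle the list's median was -0.80.

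With the E2F1 pool the median for the ribosomal protein genes against the same controls was -0.01, with RPL4 at 0.01 ± 0.08. In the direct test between the pools 69 of the 80 were lower with the E2F2 pool and none was higher, and for RPL4 the difference was -0.82 (edgeR, adjusted p = 1.57e-06). Elongation factors were among the genes that lost most CPM. EEF1A1, which delivers aminoacyl-tRNA, went from 6967, 6992 and 7244 CPM to 4244, 3991 and 4001 CPM (-0.79 ± 0.05), and EEF2, which moves the ribosome along, from 3912, 3877 and 4644 CPM to 2452, 2472 and 2708 CPM (-0.70 ± 0.17). The chaperone HSP90AA1 went from 2088, 2247 and 1932 CPM to 1244, 1135 and 1106 CPM (-0.85).

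Ribosome assembly moved with the ribosomal proteins. Of 49 nucleolar and assembly genes 37 fell and none rose (median -0.64), and 35 were lower than with the E2F1 pool. FBL, the methyltransferase of box C/D particles, went from 137, 145 and 150 CPM to 65.2, 62.6 and 66.0 CPM (-1.15). TCOF1, a cofactor of ribosomal RNA transcription, fell by 1.38, MRTO4 by 1.07, NOLC1 by 1.00 and the pseudouridine synthase DKC1 by 0.78.

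Promoters of translation genes often start transcripts at a C followed by a run of pyrimidines, the TOP motif. At the annotated start, C followed by 4 pyrimidines was present in 68.8% of 64 ribosomal protein windows, 5.35% of tested genes with a window and 4.04% of all windows. Of the tested genes that had it 26.2% fell, against 15.3% of those that lacked it, and with ribosomal protein genes left out 21.2% fell against 15.1%.

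**Figure D4:**
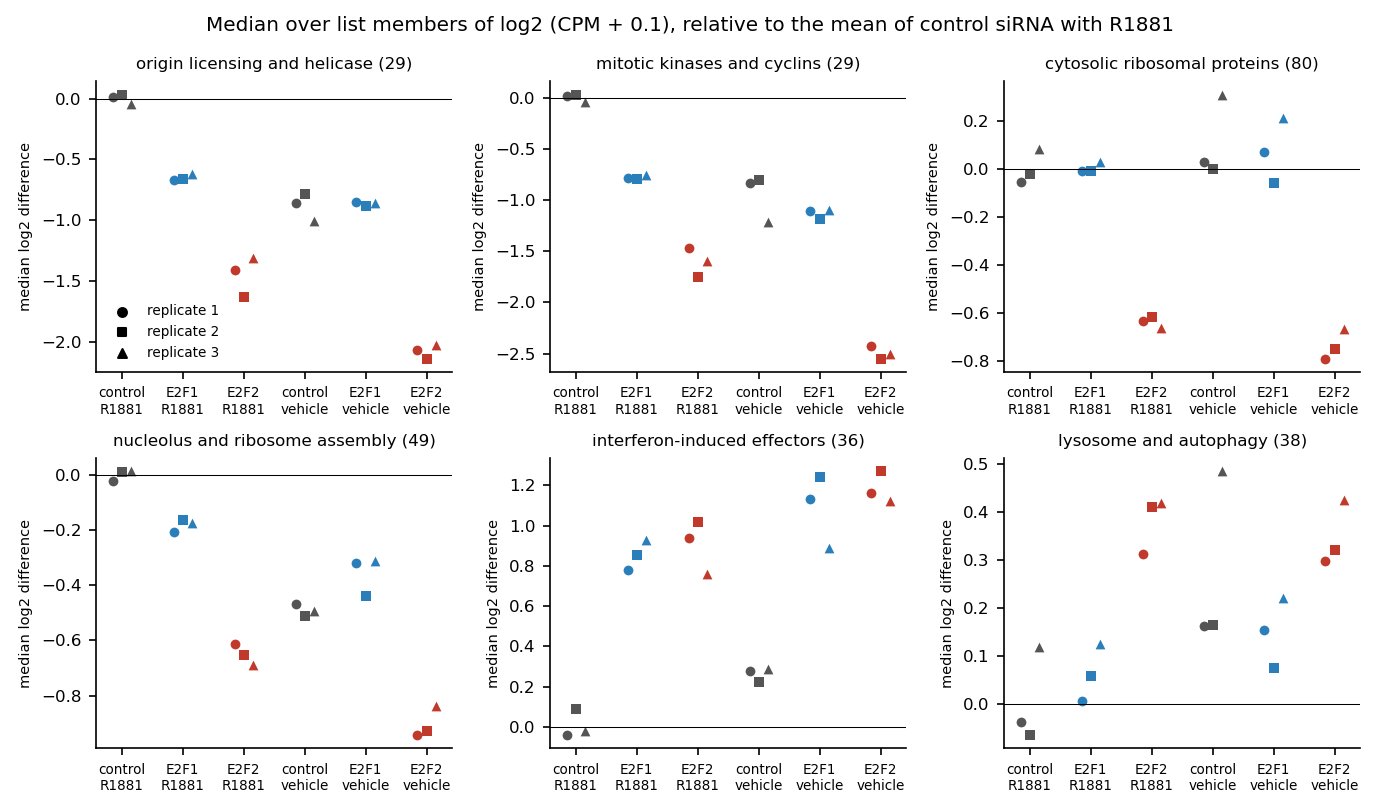
Median level of 6 gene lists in each of the 18 libraries, as log2(CPM + 0.1) relative to the mean of the control libraries with R1881, by siRNA pool and treatment; each point is a library, with symbols keyed by replicate. With E2F2 siRNA and R1881 the origin licensing medians lie between -1.63 and -1.31, the ribosomal protein medians between -0.66 and -0.61, and the interferon effector medians between 0.76 and 1.02.

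Long non-coding RNAs went in opposite directions. Several hosts of small nucleolar RNAs fell: SNHG3 went from 85.1, 89.2 and 87.1 CPM to 35.1, 32.4 and 38.4 CPM (-1.3 ± 0.08), and DANCR, ZFAS1 and SNHG16 fell by 1.00, 0.93 and 0.72. NEAT1, the scaffold of paraspeckles (chr11:65422774-65445540), went from 448, 447 and 344 CPM to 1869, 1445 and 2344 CPM (2.19 ± 0.23). MALAT1, a speckle-associated RNA (chr11:65497688-65506516), went from 17255, 18257 and 12619 CPM to 50389, 49940 and 41460 CPM (1.56 ± 0.32). In the whole list of 22, 13 fell and 3 rose, with KCNQ1OT1 the other riser (1.05, or 0.678 and no longer called without E2F2 siRNA replicate 3).

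MALAT1 took 1.25% to 1.84% of all counts in the controls and 4.11% to 4.85% with E2F2 siRNA. All genes with symbols that begin with MT- together took 4.29% to 5.6% in the controls and 5.16% to 6.01% with E2F2 siRNA. Of the 13 mitochondrially encoded genes in the list, 1 rose (median 0.19). That count was 10 with replicates 1 and 2 only, 3 without control replicate 3, and 0 without control replicate 1 or without any single E2F2 siRNA replicate. The part that RNA quality or the nuclear share of RNA plays in the other changes was not tested.

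Interferon-induced genes rose. Of 36 tested effectors 23 rose and none fell (median 0.93). IFI6, a survival protein of the interferon response, went from 9.08, 14.8 and 12.2 CPM to 65.7, 76.9 and 72.5 CPM (2.58 ± 0.18). IFI27 went from 0.267, 0.214 and 0.26 CPM to 3.80, 3.26 and 4.33 CPM (3.89 ± 0.35), and the groups were far apart in both. OAS1 and OAS2, sensors that make 2-5A, rose by 2.34 and 3.46, their relative OASL by 2.90, and the antiviral enzyme RSAD2 by 3.19. With vehicle the list's median was 1.19.

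These genes were also high with the E2F1 pool, which gave a median of 0.80 against the same control libraries. IFI6 was at 2.53 there, and the difference between the pools was 0.05 (edgeR, adjusted p = 0.89). Of the 36, 7 were higher with the E2F2 pool and 1 was lower, or 11 and 4 with replicates 1 and 2 only. Both pools were compared with a single non-targeting pool, and no mock-transfected or untransfected cells are among the samples used here, so that a response to the siRNA itself and a response to the loss of E2F cannot be told apart.

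The interferon-stimulated response element was read as TTTC, any 2 bases and TTTC again, on either strand. It stood in 75.9% of 29 windows of this list, 2.68% of tested genes with a window and 3.65% of all windows. Its share was 2.92% among all genes that rose, 2.72% among those that fell and 5.02% among those that rose at least 2-fold. Stretches of 90 bases from the windows of IFI6 (chr1:27672256-27672345, minus strand), IFI27 (chr14:94110581-94110670, plus) and the ISG15 ligase HERC5 (chr4:88456985-88457074, plus), with the element in capitals, illustrate it. HERC5 was chosen after its values were seen.
IFI6: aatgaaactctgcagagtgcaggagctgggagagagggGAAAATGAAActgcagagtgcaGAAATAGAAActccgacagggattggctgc
IFI27: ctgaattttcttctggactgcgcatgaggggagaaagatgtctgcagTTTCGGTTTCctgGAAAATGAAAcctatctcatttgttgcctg
HERC5: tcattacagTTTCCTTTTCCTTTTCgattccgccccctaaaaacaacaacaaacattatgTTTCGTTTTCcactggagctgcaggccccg
The stretches of IFI6 and IFI27 hold 2 matches each and that of HERC5 holds 3, of which the first 2 overlap. Matches elsewhere in the windows are not counted here. The last match ends 83, 85 and 64 bases before the start in IFI6, IFI27 and HERC5. HERC5 went from 8.08, 8.85 and 7.61 CPM to 25.6, 22.8 and 13.9 CPM (1.34 ± 0.27).

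Upstream of the effectors, 8 of 23 tested double-stranded RNA sensors and interferon factors rose and 2 fell (median 0.28), a count that dropped to 5 risers without control replicate 2 or without E2F2 siRNA replicate 2. The RNA helicases DDX58 (RIG-I) and IFIH1 (MDA5) rose by 1.26 and 1.23, and IRF1 by 0.76, a call that was lost without control replicate 1. In MHC class I presentation 5 of 17 rose and none fell (median 0.56), and 10 rose with replicates 1 and 2 only. B2M, the light chain of the complex, went from 125, 127 and 127 CPM to 209, 227 and 173 CPM (0.69), its transactivator NLRC5 rose by 1.17, the peptide trimmer ERAP1 by 0.68 and the peptide transporter TAP1 by 0.48. HLA-F rose from 0.601, 1.14 and 1.04 CPM to 2.20, 2.34 and 2.58 CPM (1.36), with reads that related HLA genes could share, and did not pass without control replicate 1, E2F2 siRNA replicate 2 or E2F2 siRNA replicate 3. The E2F1 pool's median for this list against the same controls was 0.01.

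Genes of lysosomes and autophagy rose in 18 of 38 cases and fell in 1 (median 0.37). NPC1, which exports cholesterol from the lysosome, went from 209, 205 and 215 CPM to 367, 391 and 380 CPM (0.86 ± 0.06) without overlap. GABARAPL1, which coats autophagosomes, rose by 0.95, the cargo receptor SQSTM1 by 0.84, the peptidase TPP1 by 0.57 and the protease CTSL by 0.46. GLA (alpha-galactosidase A) fell by 0.71. Of the 38, 12 were higher and 1 was lower than with the E2F1 pool, or 22 and 3 with replicates 1 and 2 only.

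Sterol and fatty acid synthesis rose in 11 of 37 tested genes and fell in 1 (median 0.28). With the E2F1 pool the median against the same controls was 0.26. The count of risers depended on single libraries: it was 6 without control replicate 1 or 2, 7 without E2F2 siRNA replicate 1 or 2, and 26 with replicates 1 and 2 only. ACSL1, which activates long fatty acids, went from 369, 371 and 376 CPM to 801, 805 and 691 CPM (1.04), and the desaturase SCD from 1290, 1303 and 1329 CPM to 2222, 2257 and 1997 CPM (0.72). TM7SF2 and SQLE of the sterol pathway rose by 0.93 and 0.58.

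ABC transporters rose in 8 of 28 tested cases and fell in 1 (median 0.25), with 14 risers from replicates 1 and 2 only and 5 without E2F2 siRNA replicate 2 or 3. ABCG2, an exporter of drugs and urate, went from 0.334, 0.714 and 0.606 CPM to 5.32, 10.5 and 8.99 CPM (3.90). ABCC11 and the bile salt pump ABCB11 rose by 2.30 and 2.17.

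In the stress pathways of the endoplasmic reticulum 6 of 27 genes rose, 1 fell and 20 did not pass the test (median 0.14). Over all tested genes 15.9% rose and 14.4% fell. With replicates 1 and 2 only, 15 of the 27 rose. DNAJB9, a co-chaperone, went from 30.1, 27.6 and 16.4 CPM to 78.2, 86.1 and 50.2 CPM (1.53 ± 0.36), with replicate 3 low in both groups. The sensors EIF2AK3 (PERK) and ERN1 (IRE1) rose by 1.04 and 0.65, and the disulfide isomerase PDIA4 fell by 0.85. Among 27 tested ATF4 targets 6 rose and 10 fell (median -0.23). ATF3 rose by 1.17, whereas PHGDH, the entry enzyme of serine synthesis, went from 287, 289 and 300 CPM to 131, 124 and 127 CPM (-1.20), and PSPH, the last enzyme of that pathway, fell by 0.78. Against the E2F1 pool 14 of the 27 were lower and 2 higher.

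In glycolysis and glucose transport 6 of 26 tested genes fell and 2 rose (median -0.17), with 12 falling in replicates 1 and 2 only. LDHB, a subunit of lactate dehydrogenase, went from 302, 315 and 293 CPM to 157, 135 and 145 CPM (-1.06), and the glucose transporters SLC2A12 and SLC2A3 rose by 1.14 and 1.01. Among 79 tested nuclear genes of oxidative phosphorylation 4 rose and 6 fell (median -0.01). The number falling was 2 without control replicate 3 or without E2F2 siRNA replicate 1, and 15 with replicates 1 and 2 only.

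Contractile and signalling lists were mixed. Of 16 tested actin and contraction genes 5 rose and 6 fell, with 3 falling without control replicate 3 or without E2F2 siRNA replicate 1. MYLK (myosin light chain kinase) and TPM1 (a tropomyosin) rose by 0.84 and 0.78, and CNN2 (a calponin) and ACTG2 (an actin) fell by 1.05 and 3.13. ACTG2 lost its call without control replicate 2 or 3 or without E2F2 siRNA replicate 1 or 3, with values from -5.07 to -2.68 over the libraries left out. Of 20 tested ERK feedback and early response genes 5 rose and 2 fell (median 0.15). The risers numbered 2 without control replicate 1, control replicate 2 or E2F2 siRNA replicate 1, and 3 without any other single library of the 6. SPRY4, an ERK inhibitor, went from 1.14, 0.428 and 0.346 CPM to 2.87, 2.59 and 3.00 CPM (2.08 ± 0.35), and the immediate early gene FOS from 0.334, 0.428 and 0.433 CPM to 1.27, 1.09 and 1.33 CPM (1.61 ± 0.30).

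Only 8 of 32 secretome and IGF-binding genes associated with senescent cells had enough reads to be tested, of which 5 rose and 1 fell (median 0.59). LMNB1, the nuclear lamin that is lost in senescent cells, went from 274, 268 and 282 CPM to 97.2, 81.6 and 97.4 CPM (-1.58). TIMP2, an inhibitor of matrix metalloproteases, went from 48.4, 51.7 and 57.7 CPM to 89.2, 91.5 and 96.2 CPM (0.81), and the angiogenic factor VEGFA rose by 0.52. IL1B, which also passed the test, rested on 2 counts in the controls against 18 with E2F2 siRNA, a ratio of 10.19 with a 95% counting interval of 2.44 to 90.55.

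Androgen-induced genes showed no common loss, and more of them rose than fell. Of 46 tested genes 20 rose and 3 fell (median 0.38), with 12 rising when E2F2 siRNA replicate 1 was left out. The E2F1 pool gave a median of 0.41 for this list against the same controls. KLK3, which encodes prostate-specific antigen, had 1717, 1650 and 1716 CPM in controls and 1802, 1776 and 1595 CPM with E2F2 siRNA. The groups overlapped, and the difference was 0.02 ± 0.12 (edgeR, adjusted p = 0.903). The kallikrein KLK2 fell from 440, 399 and 460 CPM to 350, 317 and 308 CPM (-0.41, adjusted p = 0.0254 in edgeR), while the protease TMPRSS2 rose from 726, 733 and 892 CPM to 1079, 1051 and 935 CPM (0.38). The call of KLK2 was lost without control replicate 1 or 3 or without E2F2 siRNA replicate 2 or 3. KLK2, KLK3 and TMPRSS2 were chosen after their values were seen. MAF, a transcription factor, and ERRFI1, an inhibitor of the EGF receptor, rose by 1.07 and 0.85.

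NCAPD3, a condensin II subunit and a member of the androgen-induced list, fell from 280, 260 and 352 CPM to 234, 178 and 148 CPM (-0.67), whereas the E2F1 pool placed it at 1.91 above the same controls, with 1164, 1069 and 1115 CPM. The direct difference between the pools was -2.58 ± 0.15 (edgeR, adjusted p = 1.22e-08), with no overlap. In that comparison 14 of the 46 androgen-induced genes were lower with the E2F2 pool and 7 higher, or 20 and 14 with replicates 1 and 2 only.

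Of 31 tested genes known to be repressed by androgen, 15 rose and 2 fell (median 0.30). AOC1, a diamine oxidase (chr7:150824627-150861504), went from 0.668, 1.21 and 1.99 CPM to 29.2, 34 and 44.4 CPM (4.83 ± 0.40). CAMK2N1, an inhibitor of the kinase CaMKII, went from 102, 89.4 and 83.9 CPM to 272, 317 and 314 CPM (1.71), against -0.84 for the E2F1 pool and the same controls. FN1 (fibronectin) fell from 619, 569 and 494 CPM to 198, 195 and 256 CPM (-1.37). In the direct comparison of the pools 17 of the 31 were higher with the E2F2 pool and 3 lower.

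Of the 16 luminal identity genes 2 rose, 4 fell and 10 did not pass the test (median -0.02). Over all tested genes the shares that rose and fell were 15.9% and 14.4%. KRT19, a keratin, went from 6.08, 5.28 and 7.87 CPM to 12.0, 16.3 and 16.5 CPM (1.22), and FOLH1 (prostate-specific membrane antigen) rose by 0.40. The pioneer factors GATA2 and FOXA1 fell by 0.61 and 0.38, and the acid phosphatase ACPP by 0.24. The falling count was 1 without control replicate 3 and 2 without E2F2 siRNA replicate 2 or 3. GATA2 lost its call without control replicate 3 or E2F2 siRNA replicate 1 or 2, FOLH1 without control replicate 3 or E2F2 siRNA replicate 2, and ACPP without replicate 3 of either group.

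Of the genes that averaged a log2 CPM of 1 or more over the series, KCNK3 had the largest rise. This gene for an acid-sensitive potassium channel had 2 counts in the 3 control libraries together and 201 with E2F2 siRNA, a ratio of 113.8 with a 95% counting interval of 31.09 to 946. S1PR3, a receptor for sphingosine-1-phosphate (chr9:88990863-89005010), had the smallest standard error of the 12 largest rises: 9.62, 8.00 and 7.79 CPM went to 108, 114 and 136 CPM, at 3.81 ± 0.13 (edgeR, adjusted p = 1.18e-10). SLC1A2, a glutamate transporter, GIMAP6, a small GTPase, and MAN1A1, a Golgi mannosidase, rose by 3.63, 3.45 and 3.40. The antisense RNAs CCDC144NL-AS1 and MCPH1-AS1 rose by 3.90 and 3.49, and without known strand their reads cannot be told apart from those of their partners. NOX1, LRAT, BDKRB2, KRT75 and RBP3, which had 0 counts in the control libraries, also passed the test and are given no fold.

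By CPM, MALAT1 gained most. FTH1, the ferritin heavy chain, went from 1105, 1055 and 1248 CPM to 2014, 2123 and 2207 CPM (0.90), and the membrane peptidase MME (neprilysin) from 1253, 1235 and 997 CPM to 2285, 2399 and 1886 CPM (0.91). ABHD2, a lipase, rose by 0.49.

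By the same rule the largest falls were shallower than the largest rises. That rule left out genes with a low average over the series, among them E2F2 (-4.05). PIF1, a helicase of telomeres and forks (chr15:64815632-64825668), went from 11.6, 10.7 and 12.4 CPM to 2.54, 1.84 and 2.66 CPM (-2.29 ± 0.22). ADRA2A, an adrenergic receptor (chr10:111077163-111080907), went from 53.1, 49.5 and 58.7 CPM to 12.2, 10.9 and 14.1 CPM (-2.12), and the E2F1 pool against the same controls was at 0.76. IQGAP3, a scaffold expressed in dividing cells, fell by 2.06. The rest of the 12 largest falls were 6 replication histones, CENPM, the repair gene RDM1 and the pseudogene CDC20P1, whose reads CDC20 could share.

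Against the E2F1 pool the largest differences were in genes with almost no reads there. KCNK3 had 0 counts in all 3 E2F1 siRNA libraries, ABCG2 had 3, 1 and 0, and AOC1 had 7, 6 and 10. GIMAP6 differed by 4.56 ± 0.35 (edgeR, adjusted p = 2.23e-07). In the other direction, ADRA2A differed by -2.88 ± 0.17, with 85.3, 89.4 and 97.8 CPM in the E2F1 siRNA libraries. GSTA1, a glutathione transferase, ACTA2, the smooth muscle actin, and SERPIND1, a thrombin inhibitor, differed by -2.54, -2.50 and -2.47. ACTA2 did not differ detectably from the control pool (-0.05 ± 0.19, edgeR adjusted p = 0.887), with 3.54, 3.00 and 4.07 CPM against 3.30, 2.76 and 4.16 CPM.

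The effect of the E2F2 pool with R1881 differed from its effect with vehicle in 135 genes (0.889%), of which 85 were shifted up with R1881 (0.56%) and 50 down (0.329%). In 53 genes (0.349%) the shift was at least 2-fold, upward in 31 (0.204%) and downward in 22 (0.145%). Of the genes that averaged a log2 CPM of 1 or more, IGFBP3 had the largest such difference. It encodes the main carrier of insulin-like growth factors in blood (chr7:45912245-45921874). With R1881 it went from 15.4, 11.7 and 10.4 CPM to 26.0, 33.7 and 26.7 CPM with E2F2 siRNA, and with vehicle from 47.3, 46.6 and 59.8 CPM to 13.8, 15.1 and 12.1 CPM. The effect was 1.20 ± 0.17 with R1881 and -1.91 ± 0.17 with vehicle, and the difference of 3.11 had an adjusted p of 8.6e-06 in edgeR.

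In GRIN3A, a glutamate receptor subunit (chr9:101569353-101738580), the difference seen with vehicle was smaller with R1881. With vehicle it went from 18.0, 19.5 and 17.7 CPM to 3.98, 4.53 and 4.31 CPM, and with R1881 from 38.6, 35.0 and 33.8 CPM to 28.1, 29.5 and 31.7 CPM (difference 1.84 ± 0.14, edgeR adjusted p = 8.6e-06). The fall with R1881 itself, -0.27, was not called without control replicate 1 or 2 or without E2F2 siRNA replicate 1 or 2. KLK3, chosen after its values were seen, showed the same arrangement, at -1.004 ± 0.12 with vehicle and 0.02 with R1881 (difference 1.03, edgeR adjusted p = 0.00813).

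Other genes were higher with E2F2 siRNA in both conditions, but by less with R1881. CXCR4, a chemokine receptor (chr2:136114349-136118165), went from 1.74, 1.71 and 2.25 CPM to 11.7, 11.1 and 11.8 CPM with R1881 and from 0.767, 0.623 and 1.13 CPM to 19.9, 23.9 and 23.4 CPM with vehicle (difference -2.10 ± 0.29, edgeR adjusted p = 0.00215). DST, a cytoskeletal linker, went from 43.0, 48.6 and 45.9 CPM to 76.9, 74.8 and 99.9 CPM with R1881 and from 57.8, 53.5 and 41.2 CPM to 272, 273 and 261 CPM with vehicle (difference -1.53). CAMK2N1 moved further with R1881 than with vehicle, where it went from 356, 361 and 348 CPM to 577, 616 and 552 CPM (difference 1.00 ± 0.13). S1PR3 also differed more with R1881, having gone from 13.7, 15.2 and 15.3 CPM to 86.3, 91.1 and 85.3 CPM with vehicle (difference 1.24). In the fit of all replicates no replication, mitotic or ribosomal list had more than 1 member in which the effect differed between the conditions. The androgen-induced and androgen-repressed lists each had 3 members shifted up with R1881 and none down. With replicates 1 and 2 only, the effect was shifted up with R1881 in 32 of the 80 ribosomal protein genes and down in none. In that fit 10 of the 29 licensing genes were shifted down and 1 up. Shifted down with none up were 9 of the 49 nucleolar genes, 5 of the 29 mitotic kinases and cyclins and 5 of the 50 histone genes. The same held for 7 of the 39 Fanconi and recombination genes and 5 of the 19 chromatin copying genes. Of the 46 androgen-induced genes 22 were shifted up and 2 down, and of the 31 androgen-repressed genes 11 and 2. Shifted up with none down were 16 of the 27 endoplasmic reticulum genes and 11 of the 38 lysosome genes. Of the 30 p53 targets 2 were shifted up and 12 down. Over all 15225 genes tested in that fit, 995 were shifted up with R1881 and 772 down.

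**Figure D5:**
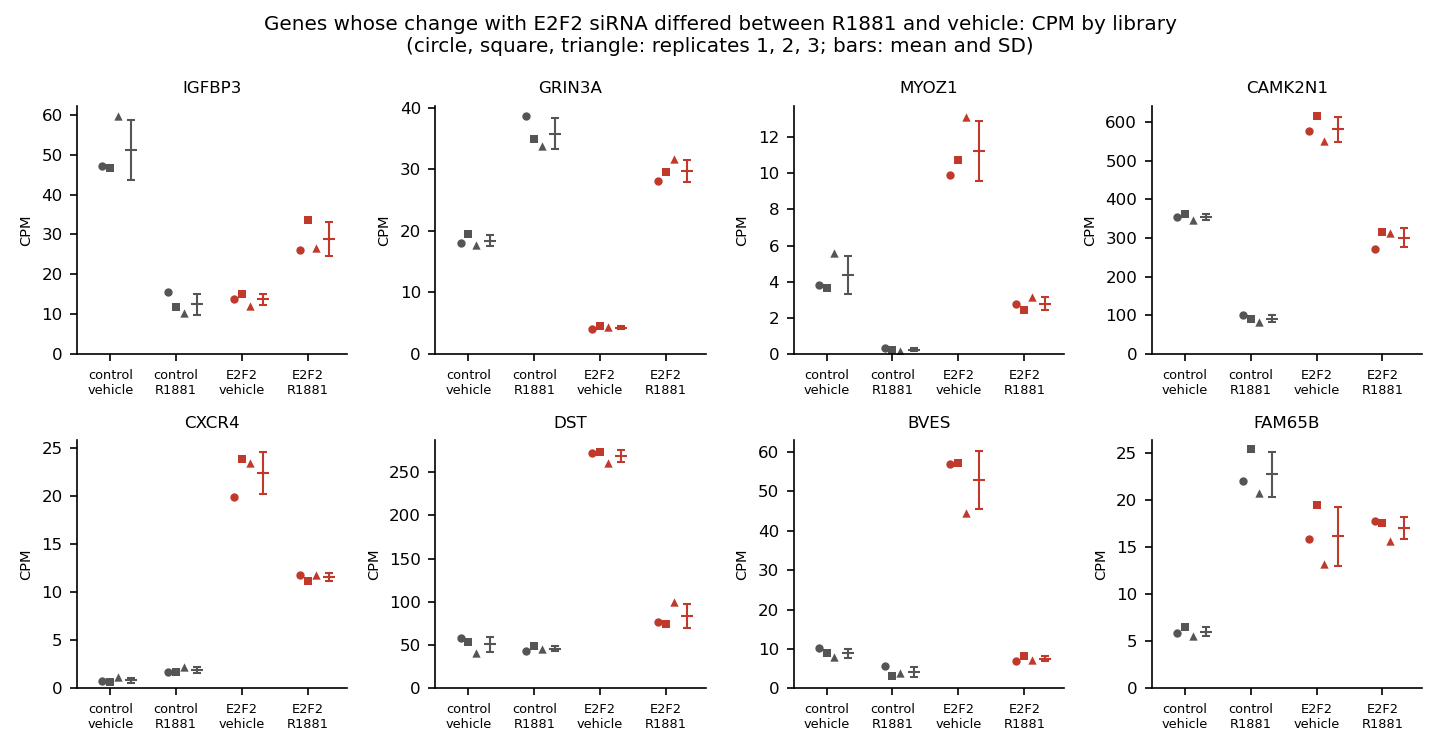
CPM of 8 genes in which the effect of E2F2 siRNA differed between R1881 and vehicle, for control and E2F2 siRNA under each treatment; symbols are single libraries, keyed by replicate, and bars are group means. IGFBP3 is lower with E2F2 siRNA under vehicle and higher under R1881, while CXCR4, DST and BVES are highest with E2F2 siRNA under vehicle.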

How the data were processed

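RNA from 18 LNCaP cultures in 6 groups of 3 was sequenced after exome capture. The authors deposited raw read counts per gene. CASAVA 1.8.2, TopHat2 2.0.13, Picard 1.97 and featureCounts (Subread 1.6.4) with GRCh38 are named in the submitters' processing notes. The strand setting, the treatment of multiply mapped reads and the annotation release are not given in the sources used here, so antisense genes and near-identical copies are uncertain. Gene positions came from GENCODE 29, in which 15122 of the 15185 tested genes were matched.

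Counts were tested with edgeR 4.0.16 (R 4.3.3): filterByExpr (minimum count 10), TMM scaling, and glmQLFit and glmQLFTest on 6 group means over all 18 libraries, with Benjamini-Hochberg adjustment over all tested genes and a threshold of 0.05. The common biological coefficient of variation was 0.167. The contrasts tested were these: E2F2 against control siRNA with R1881, E2F2 against E2F1 siRNA with R1881, and the difference of the E2F2 effect between R1881 and vehicle. Other log2 values come from the same fit and carry no call. Comparisons with the E2F1 pool against control, and with R1881, share the control libraries. CPM are the deposited counts scaled to a common library total with TMM factors, and log2 values are given ± SE. The p-values set each difference against the spread between cultures within the 6 groups, estimated over all 18 libraries. Counting intervals are exact at 95% and cover counting error only. The script was tested on simulated data.

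The comparison, the gene lists and the alternatives were chosen with earlier results of these data known. Genes were named by rule: E2F1 and E2F2; the 12 largest rises and falls among called genes whose groups did not overlap and whose log2 CPM averaged 1 or more; the 6 largest changes in CPM each way; up to 5 called members per list by p; and the 5 largest changes each way in the other 2 contrasts. Alternatives were DESeq2 1.42.0, limma 3.58.1, other scalings, filters and thresholds, a replicate block and leaving out libraries. Values of some genes are not reported here.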

Additional observations from a re-analysis of the deposited data

Results flagged for a closer look

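The effect of E2F2 siRNA with R1881 differed from that with vehicle, by edgeR's test of the interaction, in 135 genes. Each value below is the log2 effect with R1881 minus that with vehicle. Among the genes described, the difference was positive for IGFBP3 (3.11), REG4 (2.50), MYOZ1 (2.09), SLC25A34 (1.90), GRIN3A (1.84), MAN1A1 (1.51), S1PR3 (1.24), KLK3 (1.03), CAMK2N1 (1.00), HERPUD1 (0.736), ACPP (0.55) and STAT3 (0.491). It was negative for CXCR4 (-2.10), FAM65B (-1.84), BVES (-1.73), DST (-1.53), TMTC2 (-1.44), HK2 (-0.751) and MCM6 (-0.624). The call was lost in some of the 12 fits that left out a library for MAN1A1 (11 fits), SLC25A34 (9), ACPP (8), STAT3 (8), REG4 (7), MCM6 (6), HK2 (5), HERPUD1 (3) and MYOZ1 (2), with the sign kept in each.

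REG4, a secreted lectin, had 0.668, 0.714 and 0.519 CPM with control siRNA and 0.254, 1.00 and 1.25 CPM with E2F2 siRNA under R1881, and 4.68, 5.67 and 7.74 CPM against 1.20, 1.32 and 1.64 CPM under vehicle. MYOZ1, a sarcomere protein, had 0.334, 0.214 and 0.173 CPM against 2.79, 2.43 and 3.16 CPM under R1881, and 3.84, 3.67 and 5.60 CPM against 9.89, 10.8 and 13.1 CPM under vehicle. BVES, a cell adhesion protein, had 5.54, 3.14 and 3.89 CPM against 7.02, 8.2 and 7.24 CPM under R1881, and 10.1, 8.86 and 7.87 CPM against 57.1, 57.1 and 44.4 CPM under vehicle.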

How the results depend on the processing

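Of the genes named in the comparison with control siRNA, 224 of 247 called kept their call and direction in every alternative fit at the threshold of 0.05. The stricter thresholds on adjusted p and fold were applied only to counts over all genes. Most had been named for a large change or a small p, so this share does not stand for all calls. The count of 4601 called genes was 2971 at an adjusted p of 0.01, 1345 with a change of at least 2-fold, and 7828 with replicates 1 and 2 only, of which 4387 were shared with the 4601. It ran from 3635 to 3945 with a single library left out, and 76.5% to 81.7% of the 4601 were then still called. The 3648 genes that differed between the pools were 2128, 1020 and 6810 under those settings, and 2662 to 2934 with a library left out. The 135 genes whose effect differed between R1881 and vehicle were 37 at 0.01, 53 with at least 2-fold, 1767 with replicates 1 and 2 only, 60 with no filter on low counts, 317 with DESeq2 and 40 when only the groups compared were fitted. With a library left out they ran from 53 (without E2F2 siRNA with R1881 replicate 2) to 208 (without control siRNA with vehicle replicate 3). The cause of these shifts was not tested. Signs turned only in ACTA2, at 0.0544 without control siRNA with R1881 replicate 3 and 0.0800 without E2F2 siRNA with R1881 replicate 2 (-0.218 to 0.0800 over all libraries left out), in REG4, at -0.125 with replicates 1 and 2 only and -0.0221 without E2F2 siRNA with R1881 replicate 3 (-0.0221 to 0.804), and in TMTC2, at -0.00484 with library totals and -0.0251 with no filter. None of these 3 was called against control siRNA. The share of calls that were higher was 52.5%, and 46.7% to 57.3% over the scalings and 44.2% with no filter.

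The main fit did not use the replicate number as a pairing, so spread shared by same-numbered libraries was not removed. Deviations of same-numbered control and E2F2 siRNA libraries with R1881 had positive correlations, of 0.153, 0.0819 and 0.332. Those of E2F1 and E2F2 siRNA with R1881 were 0.183, 0.0911 and 0.32. The correlations were higher in the other pairs of groups that enter the difference between R1881 and vehicle: 0.268, 0.395 and 0.611 for both pools with vehicle, 0.166, 0.286 and 0.494 for control with R1881 and E2F2 siRNA with vehicle, and 0.301, 0.157 and 0.429 for control with vehicle and E2F2 siRNA with R1881. With the replicate block the calls numbered 6919 against control, including all 4601, 5848 between the pools and 658 for the difference between R1881 and vehicle.

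Depth limits genes with few reads: 15185 of 58037 listed genes were tested, and the folds of KCNK3 and IL1B rest on 2 control counts each.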
